A study of Mus musculus with 1699 samples.

Results

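The cells described here are Gad2-high neurons of the adult mouse ventral midbrain, sorted for the GFP that reports Pitx3. They were chosen by 3 measured values: more than 100000 reads on genes, a Gad2 level over an RPKM of 150 and an Nxph4 level of 150 or less. RPKM is the number of reads per kilobase of a gene, scaled to 1000000 reads of the cell. At P90, 60 cells met the rule, of 1699 cells in the whole series. They made up 18.5% (95% exact Clopper-Pearson interval 14.4 to 23.1%) of the P90 cells with enough reads. All P90 cells came from Pitx3eGFP/wt mice, which are heterozygous for the Pitx3tm1Mli allele, so that eGFP stands in for 1 copy of Pitx3. The animals, male and female, were taken at postnatal day 90. Their tissue was dissociated with papain, GFP-positive cells were sorted singly by FACS, and Smart-seq2 libraries of polyA RNA were made with ERCC RNA in the lysis buffer. A GFP reporter at Pitx3 takes in cells with reporter protein, whether or not they still carry the transcript. The labels do not say which animal a cell came from. Each stage was therefore treated as 1 sample without replicates, no test between cells was made, and every interval covers counting error only.

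GABA is made from glutamate by the glutamate decarboxylases GAD65 and GAD67, the products of Gad2 and Gad1, and is loaded into synaptic vesicles by VGAT, the product of Slc32a1. Dopamine is made from tyrosine by tyrosine hydroxylase (Th) and aromatic amino acid decarboxylase (Ddc), is loaded by VMAT2 (Slc18a2) and is taken back up by the dopamine transporter (Slc6a3, Dat). VGLUT2, from Slc17a6, loads glutamate. Some midbrain neurons hold parts of more than 1 of these pathways, and the study divided neurons among cells with a Pitx3 reporter into groups, naming them by Gad2, Nxph4, Th and other genes.

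The 60 cells were compared with the other P90 cells, which made up 81.5% of the stage. Nxph4-high cells (45.8% of the P90 cells) had Nxph4 but not Gad2 over 150, 21 cells had both over 150, and 95 had neither. Of these 95, 66 had Slc6a3 over 150 and are called Slc6a3-high. By Th, 30 of the 60 cells were over an RPKM of 150 (Th-high) and 30 were not (Th-low). Their reads ran from 329571 to 5399895 with a median of 1805590 (1748158 in the other cells), and a median of 8874 genes had a read (8736 in the other cells). The cells came from 4 plates, which held 15, 9, 21 and 15 of them on plates 1, 2, 4 and 5. Of those, 12, 3, 11 and 4 were Th-high, so the share of Th-high cells ran from 26.7 to 80% between plates. Xist, transcribed in female cells, had a read in 0 members on plates 1 and 2, in 19 of 21 on plate 4 and in 13 of 15 on plate 5. A Y-linked gene had a read in 13 of 15 members on plate 1, in 9 of 9 on plate 2 and in 0 on plates 4 and 5. The other P90 cells split in the same way, with 1 exception, a Y-linked read in 1 cell of plate 4. By these reads plates 1 and 2 held male cells and plates 4 and 5 female cells, so sex cannot be told apart from plate. Th-high cells made up 62.5% of the members on plates 1 and 2 and 41.7% on plates 4 and 5, and values within these pairs of plates, a division made after the values were seen, are given beside many of the results. No 2 cells had the same counts, and no doublet caller was run.

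The level that chose the cells is a description and no finding. Gad2 (chromosome 2) ran from 159.5 to 1149 with a median of 619 RPKM, and 54 of the 60 cells were over 300. Just inside the line lay cells at 159.5, 192.1 and 204.5. Just outside, among cells with Nxph4 of 150 or less, lay 148.5, 138.6, 134.3 and 89.7. Nxph4, a neurexophilin that binds neurexins, was at 0 in 17 of the 60 cells and over 10 in 9. Its highest values among them were 134.3, 134.2 and 131.3 RPKM, and the cells kept out by it began at 156.99. Both lines thus had cells close to them.

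The promoter of Slc32a1 is shown because the vesicular GABA transporter and Gm14204, an RNA of the opposite strand, start head to head there, and both were high in these cells. The run is taken from RefSeq on GRCm38.p6, the build that mm10 names, at chr2:158610508-158610757 on the plus strand, and ends 1 base before the first base of Slc32a1. Capitals mark the 34 bases that lie between the first base of Gm14204 and the first base of Slc32a1.
Slc32a1 upstream: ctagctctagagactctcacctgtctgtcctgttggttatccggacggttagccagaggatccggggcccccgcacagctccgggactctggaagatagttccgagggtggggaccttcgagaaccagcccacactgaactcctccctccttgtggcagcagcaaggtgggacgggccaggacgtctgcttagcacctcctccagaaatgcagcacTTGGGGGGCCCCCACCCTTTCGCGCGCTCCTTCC

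The markers given for these cells were present in most of them. Crhbp, which encodes a secreted protein that binds corticotropin-releasing hormone, was over an RPKM of 10 in 51 of 60 cells and in 7.92% of the others, a difference of 77.1 points (95% Newcombe interval 65.3 to 84.5). Within the 60 it ran from 0 to 4886 with a median of 539 RPKM. Summed over cells, Crhbp made up 953 of every 1000000 reads (953 CPM) of the Gad2-high cells and 8.86 CPM of the other cells, and its log2 ratio lay between 4.79 and 8.11 on the 4 plates. Slc32a1 was over 10 in 37 of 60 cells and 2.64% of the others (difference 59.03 points, 46.1 to 70.4). Its values were low beside those of Gad2, with a median of 15.8 and a highest value of 149.8 RPKM, and 4 of the 60 cells had none. Ebf3, a transcription factor of the early B-cell factor family, was over 10 in 46 of 60 cells and 23.8% of the others (difference 52.9 points, 39.6 to 62.97), with a range of 0 to 107.9 and a median of 19.1 RPKM. Crhbp, Slc32a1 and Ebf3 were all over 10 in 27 of the 60 cells and in 1 of the others, and 2 of the 60 had none of them over 10. Within plates 1 and 2 the difference for Crhbp was 68.2 points (47.7 to 81.5) and within plates 4 and 5 it was 81.96 (66.6 to 88.9), and those for Slc32a1 were 58.8 and 60.1 and those for Ebf3 50.5 and 51.4. Slc32a1 was the marker most often under the line of 10. The markers were named with earlier results of these data known, so their presence is a description and no test of the label.

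**Figure D1:**
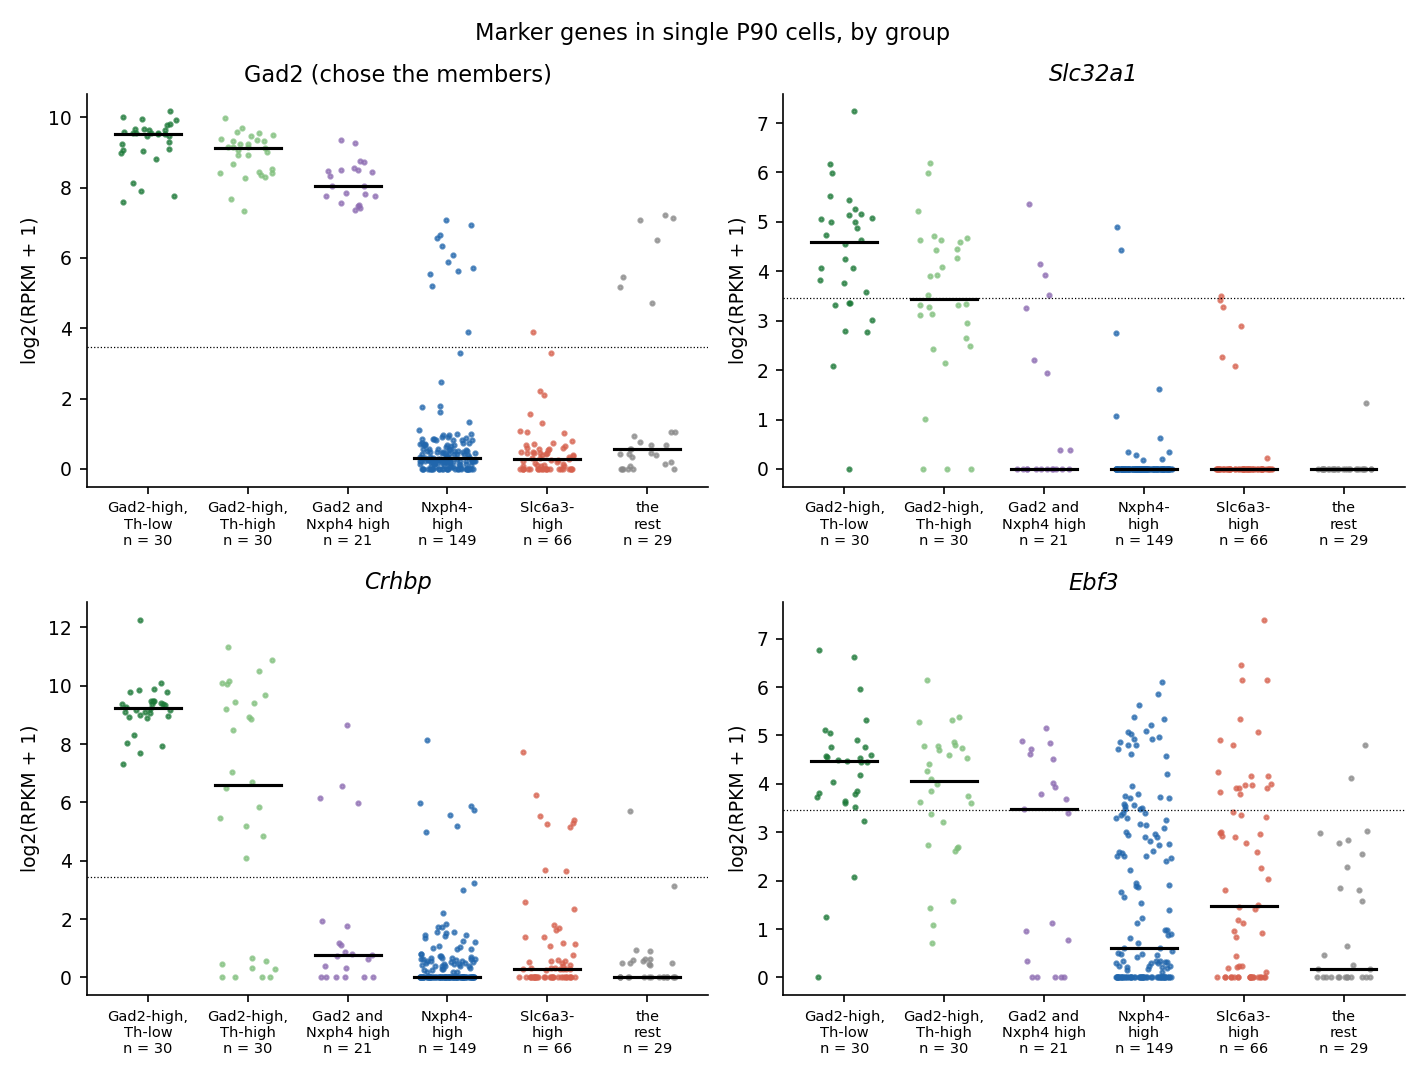
Level of marker genes in single P90 cells as log2(RPKM + 1), with 1 point per cell, by group, and a dotted line at an RPKM of 10. Gad2 chose the groups and is drawn for reference, and Crhbp lies over the line in 51 of the 60 Gad2-high cells and in 7.92% of the other cells.

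Gm14204, across the promoter from Slc32a1, was over 10 in 50 of 60 Gad2-high cells and in 4.53% of the others, with a median of 82.1 and a highest value of 329.7 RPKM. Both RNAs were over 10 in 32 of the 60 cells, and Gm14204 was over 10 without Slc32a1 in 18, so that it was over 10 in 32 of 37 cells with Slc32a1 and in 18 of 23 without. Smart-seq2 does not mark the strand, so reads where genes of opposite strands overlap cannot be told apart. In the GENCODE vM21 annotation the starts of Gm14204 and Slc32a1 lie 44 bases apart and do not overlap, but Slc32a1 itself is overlapped by Gm14205 on the other strand, and Ebf3 by Gm45278 and Gm10578.

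The other decarboxylase was absent from the reads. Gad1 (chromosome 2, 70553072 to 70602014, plus strand) had no read in any of the 60 cells, which allows a share of up to 5% of such cells with a read (3 of 60, the limit taken here for a count of 0). Among the other cells, 30 had a Gad1 read and 13 were over an RPKM of 10, of which 12 were Nxph4-high. The difference in the share over 10 was -4.91 points (-8.21 to 1.44), an interval that includes 0. In pooled reads Gad1 was at least 845-fold lower in the Gad2-high cells than in the others (20.3 CPM), taking 3 reads over the group as the floor. Gad1os overlaps Gad1 on the other strand. Abat, which breaks GABA down, was over 10 in 56 of 60 cells and 93.96% of the others (log2 ratio 0.21).

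Of 10941 genes with a mean of at least 5 CPM over the P90 cells, 2.45% were at least 2-fold higher in the Gad2-high cells than in the others and 5.43% at least 2-fold lower, with a median log2 ratio over all genes of 0.03. Of 10 genes of GABA synthesis, loading, uptake and breakdown, 9 passed that filter, with 2 higher (Gad2, which chose the cells, and Slc32a1), and Gad1 and Maob were among those lower. Maob, a monoamine oxidase that also acts in making GABA from putrescine, was over 10 in 5 of 60 cells and 21.5% of the others (log2 ratio -1.57). None of the 21 transcription factors listed for midbrain GABA neuron lineages, such as Gata2, Tal1, Tal2 and Sox14, passed the filter. In the 60 cells 14 of the 21 had no read and 2 were over 10 in any cell. In the other P90 cells, which are more numerous, 9 of the 21 had no read and 6 were over 10 in any cell. At least 1 of the 21 was over 10 in 2 of the 60 cells and in 18 of the others. Low levels of these factors were thus not particular to the Gad2-high cells.

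Genes for loading glutamate were present beside those for GABA. Slc17a6 was over 10 in 57 of 60 Gad2-high cells, from 0.455 to 388.5 with a median of 141.8 RPKM, and in 87.9% of the others. Its pooled log2 ratio was -0.63, and within plates it lay between -0.98 and -0.18. Both Slc32a1 and Slc17a6 were over 10 in 34 of the 60 cells (56.7%, 43.2 to 69.4%) and in 2.26% of the others. In 23 of the 60 Slc17a6 alone was over 10, in 3 Slc32a1 alone, and in 0 neither. Slc17a8, the gene of VGLUT3, was over 10 in 2 of the 60 cells and in 0 of the others. Of 9 genes of glutamate synthesis and loading compared, 0 were 2-fold higher or lower, beside 2.45 and 5.43% of all genes.

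Dopamine genes were present in the same cells to differing extents. Ddc was over 10 in all 60, from 19.1 to 2088 with a median of 446 RPKM, and in 70.9% of the others (difference 29.1 points, 21.1 to 34.8), with a pooled log2 ratio of -0.57. Slc18a2 was over 10 in 55 of 60 and 70.6% of the others (difference 21.1 points, 10.1 to 28.5), although its pooled log2 ratio was -0.60. Within plates 1 and 2 the difference for Slc18a2 was 6.64 points and within plates 4 and 5 it was 40.1, and against the 95 cells with neither Gad2 nor Nxph4 over 150 it turned to -3.07. Th, which divides the cells below, ran from 0 to 3942 with a median of 200 RPKM and was over 10 in 42 of 60. Ddc was over 10 with Th at 10 or less in 18 of 60 cells (30%, 18.8 to 43.2%) and in 7.92% of the others. All of Slc32a1, Slc17a6, Ddc and Slc18a2 were over 10 in 30 of the 60 cells and in 1.51% of the others.

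Slc6a3 marked few of them. It was over 10 in 14 of 60 Gad2-high cells and 33.2% of the others (difference -9.87 points, -20.5 to 3.38, an interval that includes 0). It was over 150 in 3 of the 60, with a highest value of 964.9 and a median of 1.00 RPKM, and its log2 ratio against the other cells was -3.94. Gch1, which makes the cofactor of tyrosine hydroxylase, was over 10 in 13 of 60 and 29.8% of the others (log2 ratio -1.82). Slc10a4, a transporter-like protein of monoaminergic vesicles, was over 10 in 24 of 60 and 41.9% of the others (log2 ratio -2.47). Drd2, the dopamine autoreceptor, was over 10 in 9 of 60 and 28.7% of the others (log2 ratio -2.23), and Kcnj5, a channel subunit opened by such receptors, in 0 of 60 and 7.17% of the others. Of 11 genes of dopamine synthesis and transport, 0 were 2-fold higher and 4 lower (2.45 and 5.43% of all genes), with a median log2 ratio of -0.57. Against Nxph4-high cells alone 3 were higher (Th, Slc18a2 and Ddc) and 0 lower (3.9 and 5.86% of all genes), with a median of 0.48. Against Slc6a3-high cells alone 0 were higher and 7 lower (11 and 4.73% of all genes), with a median of -1.90. Drd2 had a log2 ratio of 1.69 against the Nxph4-high cells and of -3.89 against the Slc6a3-high cells. In full, Ddc, Slc18a2, Th and Slc6a3 were all over 10 in 12 of the 60 cells.

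**Figure D2:**
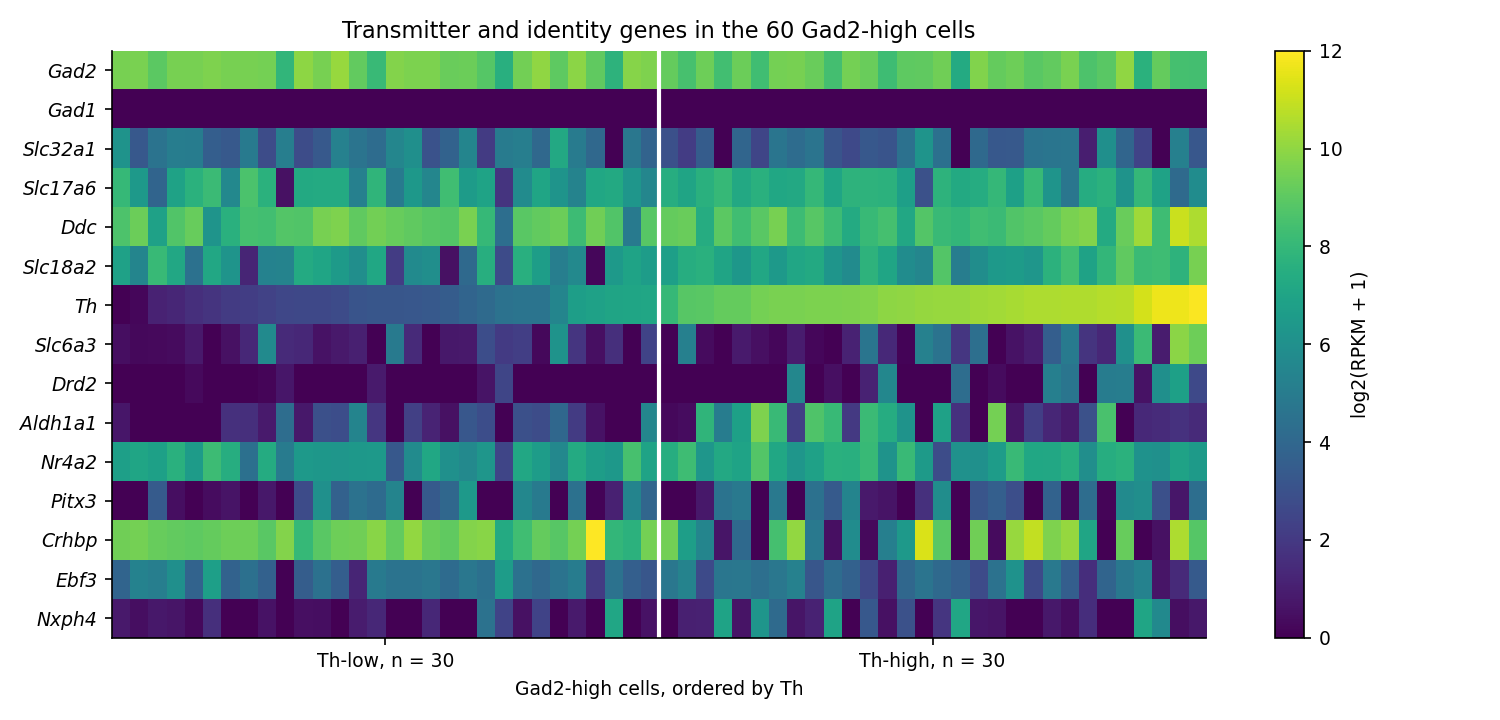
Level of 15 transmitter and identity genes as log2(RPKM + 1) (colour) in each of the 60 Gad2-high cells (columns), ordered by Th, with a white line between 30 Th-low and 30 Th-high cells. Gad1 is at 0 in all columns, and Ddc is over an RPKM of 10 in all of them, on both sides of the line.

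Of the transcription factors of the midbrain dopamine lineage, some were in most of the cells and others in few. Nr4a2, a nuclear receptor needed for dopamine neuron identity, was over 10 in 57 of 60 Gad2-high cells and 94.7% of the others. Foxa2 was over 10 in 38 of 60, Lmx1a in 36 and En1 in 32, all floor plate or midbrain factors, and none of them differed 2-fold from the other cells. Foxa1, a relative of Foxa2, was over 10 in 17 of 60 cells, Lmx1b in 12 (13.6% of the others) and Otx2 in 7 (24.5% of the others). Pitx3 itself, the gene with the reporter, was over 10 in 24 of 60 (43.02% of the others), and eGFP in 23 (53.96% of the others, difference -15.6 points, -28.3 to -1.6). Of 12 lineage factors, 2 were 2-fold lower, beside 5.43% of all genes. They were Satb1 (over 10 in 5 of 60 cells and 33.2% of the others, log2 ratio -2.90) and Neurod6 (0 of 60 and 9.06%), which was over 10 in 21 of 66 Slc6a3-high cells.

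Other transcription factors differed from the other P90 cells. Ebf2, a relative of Ebf3, was over 10 in 36 of 60 cells and 32.8% of the others, with a log2 ratio of 1.25 that ran from -1.04 to 1.38 on the plates, and a difference of 27.2 points that was 16.4 within plates 1 and 2. Ebf1 was over 10 in 13 of 60 and 34.7% of the others (log2 ratio -0.69). The nuclear factor I genes were lower than in the pooled others, with Nfix over 10 in 5 of 60 cells and 50.2% of the others, Nfia in 1 and 22.3%, and Nfib in 3 and 30.2%, although 1 of the 60 cells had an Nfib level of 845.2 RPKM. Nfix was over 10 in 69.1% of Nxph4-high cells and in 5 of 66 Slc6a3-high cells, and against the Slc6a3-high cells alone the log2 ratios were 1.35 for Nfix, 2.90 for Nfia and 1.65 for Nfib. Tcf4, a partner of basic helix-loop-helix proteins, was over 10 in 26 of 60 Gad2-high cells, 98.7% of Nxph4-high cells and 29 of 66 Slc6a3-high cells.

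Ranked by the smallest difference over the 4 plates, among 9722 genes of which 1946 went the same way on all plates, the genes highest against the other P90 cells were Crhbp, Gm14204, Gad2, Pld1, Slc32a1, Fras1, Ptprq, Adam33, Slc26a7 and Grem1. Pld1, a phospholipase that makes phosphatidic acid, was over 10 in 20 of 60 cells and 1.51% of the others. Ptprq, a receptor-type phosphatase, was over 10 in 33 of 60 and 2.64% of the others, with a highest value of 93.5 RPKM and log2 ratios of 2.60 to 6.62 on the plates. Adam33, a membrane metalloprotease, was over 10 in 22 of 60 and 3.02% of the others, and Grem1, a secreted antagonist of bone morphogenetic proteins, in 14 and 1.89%. Fras1, an extracellular matrix protein, was over 10 in 9 of 60 and 0.377% of the others, and Slc26a7, an anion transporter, in 13 and 2.26%. Within plates 1 and 2 the differences were 29.6 points for Ptprq, 19.6 for Adam33 and 10.6 for Grem1, and within plates 4 and 5 they were 68.5, 41.4 and 28.6. Most of these genes thus marked some of the 60 cells and few others.

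Among the genes lowest by the same ranking were Arpp21, Lpl, Ppp1r17, ENSMUSG00000098220, H2-Q2, Penk, Ptgds, Tac1 and Ust. Arpp21, a phosphoprotein regulated by cyclic AMP, was over 10 in 0 of 60 cells, with a highest value of 3.58 RPKM, and in 43.4% of the others (difference -43.4 points, -49.4 to -35.0). Lpl, lipoprotein lipase, was over 10 in 0 of 60 and 30.9% of the others, Ust, a sulfotransferase, in 0 and 26.4%, and Ptgds, a prostaglandin D synthase, in 0 and 25.7%. Ust and Ptgds were over 10 in 0 of 66 Slc6a3-high cells as well, whereas Lpl was over 10 in 26 of 66 and in 24.2% of Nxph4-high cells. ENSMUSG00000098220, an entry without a symbol, was over 10 in 46 of 66 Slc6a3-high cells and in 1 of the 60. H2-Q2 belongs to a family of near-identical class I genes, whose reads the authors' unique mapping may split.

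**Figure D3:**
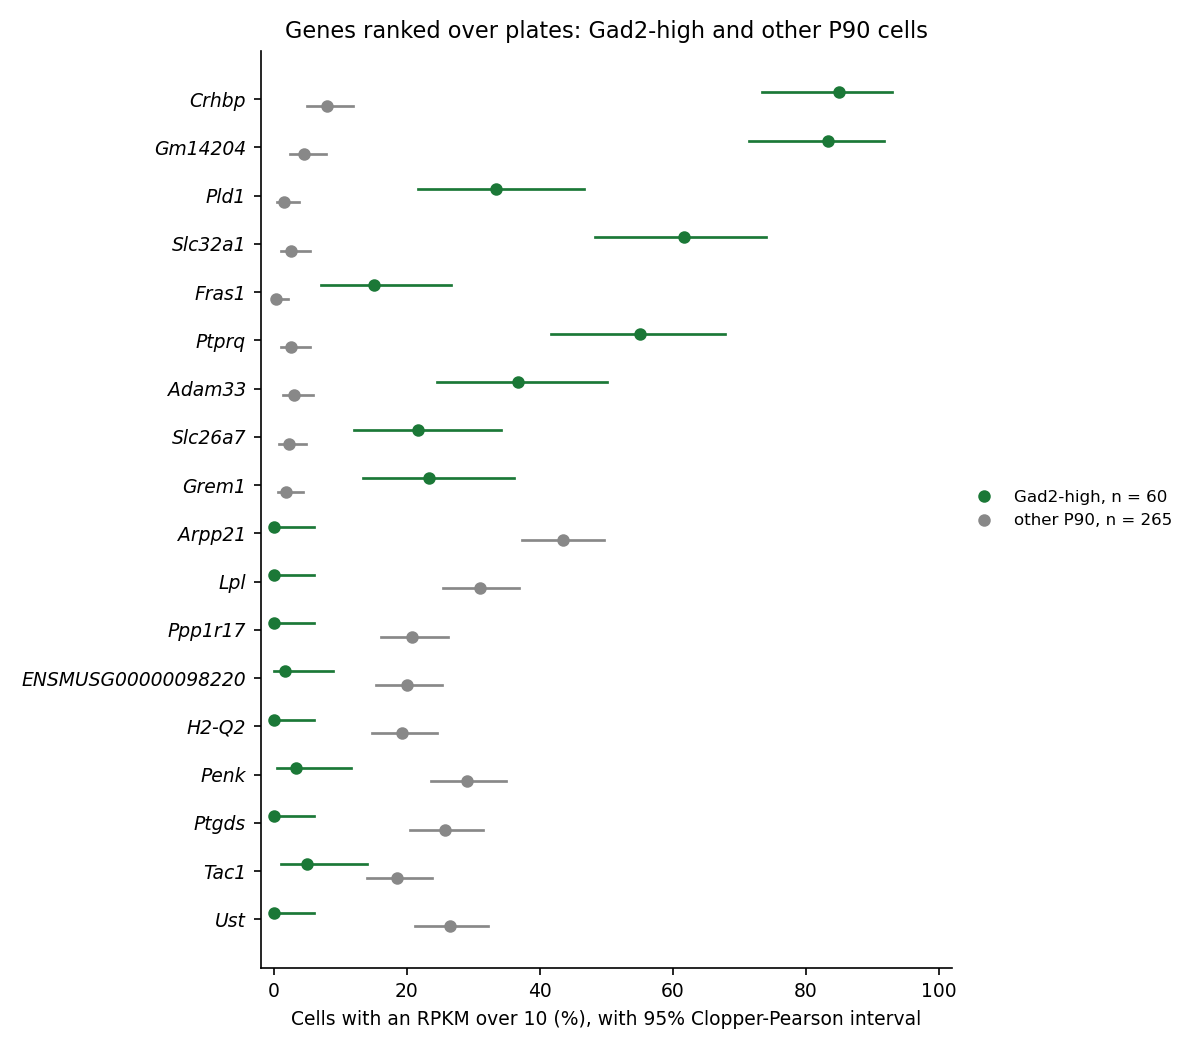
Share of cells with an RPKM over 10 for ranked genes (Gad2 left out), in 60 Gad2-high cells (green) and the other P90 cells (grey), with 95% Clopper-Pearson intervals. Crhbp and Gm14204 are over 10 in 51 and 50 of the Gad2-high cells, and Arpp21, Lpl, Ppp1r17, H2-Q2, Ptgds and Ust in 0.

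Genes whose log2 RPKM over all P90 cells with enough reads was most like that of Gad2 were, by Pearson's r, Slc32a1 (0.75), Gm14204 (0.72), Crhbp (0.69), Ptprq (0.62), Ndst3 (0.57), Plcl1 (0.54), Chrnb3 (0.51), Cacna2d3 (0.49), Fras1 (0.49) and Pld1 (0.48). These are descriptions over cells that share plates and depth. Ndst3, which modifies heparan sulfate, was over 10 in 56 of 60 cells and 42.6% of the others. Cacna2d3, an auxiliary calcium channel subunit, was over 10 in 54 of 60 and 29.1% of the others. Plcl1, a phospholipase C-like protein, was over 10 in 36 and 10.6%, a difference of 49.4 points that was 32.9 within plates 1 and 2 and 62.6 within plates 4 and 5.

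Receptors for transmitters and hormones went both ways, with 8 of 43 compared at least 2-fold higher and 11 lower, beside 2.45 and 5.43% of all genes. Chrnb3, the beta3 subunit of nicotinic receptors, was over 10 in 59 of 60 Gad2-high cells, with a median of 250.8 RPKM, in 51 of 66 Slc6a3-high cells and in 6.71% of Nxph4-high cells. Htr2c, the serotonin 2C receptor, was over 10 in 49 of 60, with a highest value of 1024 and a median of 47.3 RPKM, in 36.2% of Nxph4-high cells and in 4 of 66 Slc6a3-high cells. Chrnb3 was thus shared with Slc6a3-high cells, and Htr2c with part of the Nxph4-high cells. Ghsr, the ghrelin receptor, was over 10 in 19 of 60 cells and 1.89% of the others (difference 29.8 points, 19.1 to 42.4). Avpr1a, a vasopressin receptor, was over 10 in 37 of 60 and 20.4% of the others, with plate log2 ratios from -0.95 to 2.55, and Chrm2, a muscarinic receptor, in 29 and 21.5%. Lower were Htr3a (over 10 in 0 of 60 cells and 13.96% of the others), Npy2r (0 and 12.5%), Chrm1 (1 and 20%), Oprk1 (1 and 29.4%) and Oxtr (2 and 15.8%), receptors of serotonin, neuropeptide Y, acetylcholine, dynorphin and oxytocin. Against Slc6a3-high cells alone Htr3a was higher (log2 ratio 4.14), Npy2r and Oprk1 were lower (-1.80 and -5.01), and Chrm1 and Oxtr were not past 2-fold.

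Most peptide precursors that could be compared were lower than in the pooled others. The filter is a mean over all P90 cells, most of which are the others, so a gene high in a few others can pass it. Sst, the somatostatin precursor, went the other way by cells and was over 10 in 5 of 60 and 1.89% of the others. Of 30 listed, 10 passed the filter, 0 were 2-fold higher and 7 lower (5.43% of all genes lower), with a median log2 ratio of -2.72 (0.03 over all genes). Against Nxph4-high cells alone 4 were higher (Npw, Grp, Cck and Vip) and 4 lower, with a median of -0.12, and against Slc6a3-high cells 3 were higher (Npy, Tac1 and Calca) and 5 lower, with a median of -1.06. Penk, the enkephalin precursor, was over 10 in 2 of 60 cells and 29.1% of the others, Tac1, the precursor of substance P, in 3 and 18.5%, and Adcyap1, the precursor of PACAP, in 15 and 71.3%. Vip, the precursor of vasoactive intestinal peptide, was over 10 in 5 of 60 cells and 7.17% of the others, with 8.20 CPM and 684 CPM in pooled reads. Cck, the cholecystokinin precursor, went the other way by cells than by reads and was over 10 in 29 of 60 cells and 33.2% of the others (difference 15.1 points, 1.6 to 28.6) with a log2 ratio of -1.54. Vip was over 150 in 9 other cells, with a highest value of 33177 RPKM, against 1 of the 60, and Cck was over 10 in 58 of 66 Slc6a3-high cells, with a median of 1081 RPKM. Against the 95 cells with neither Gad2 nor Nxph4 over 150, the differences turned to -36.9 points for Cck and 0.789 for Tac1.

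Among genes of glutamate receptors and their auxiliary proteins, 5 of 28 were 2-fold higher and 3 lower, Grik3 and the auxiliary genes Neto1 and Cacng5 (2.45 and 5.43% of all genes). The median log2 ratio was 0.32. Grik1, a kainate receptor subunit, was over 10 in 33 of 60 cells and 15.1% of the others, Grm8, a presynaptic metabotropic receptor, in 26 and 10.6%, and Gria3, an AMPA receptor subunit, in 49 and 58.1%. Grik3, another kainate subunit, was over 10 in 0 of 60 and 15.1% of the others. Of 17 GABA and glycine receptor subunits 1 was higher (Gabrg3, over 10 in 16 of 60 and 10.2% of the others) and 2 lower (Gabra4, 9 and 45.3%, and Glra2, 6 and 30.9%), beside 2.45 and 5.43% of all genes.

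Synaptic adhesion genes had 8 of 32 higher and 5 lower (2.45 and 5.43% of all genes). C1ql3, a secreted C1q-like protein that binds adhesion receptors, was over 10 in 20 of 60 cells and 7.55% of the others, and Nrxn3, a neurexin, in 59 and 74.7%. C1ql1 was over 10 in 14 of 60 cells, 68.7% of the others and 94.6% of Nxph4-high cells, and Nxph1 in 4 of 60 and 40% of the others. Cbln1 was over 10 in 49 of 60 cells and 40.4% of the others (log2 ratio 1.23), whereas Cbln4, a relative, was over 10 in 18 and 60.8% (log2 ratio -1.55). Of 33 potassium channel genes 2 were higher and 5 lower, beside the same shares of all genes. Of 27 calcium, sodium and HCN channel genes 2 were higher, Cacna2d3 and Ryr3, a calcium release channel (over 10 in 35 of 60 cells and 22.6% of the others), and 2 lower, again beside 2.45 and 5.43% of all genes. The difference for Ryr3 was 35.7 points, with 18.8 within plates 1 and 2 (0.24 to 39.2) and 47.1 within plates 4 and 5. Ryr3 is overlapped by Aven on the other strand.

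Of 7 secreted Wnt pathway genes compared, 3 were 2-fold higher and 0 lower, beside 2.45% of all genes higher. Wnt7b was over 10 in 48 of 60 Gad2-high cells, from 0 to 235.9 with a median of 44.2 RPKM, and in 27.5% of the others (difference 52.5 points, 39.4 to 62.05). Within plates 1 and 2 it was over 10 in 14 of 24 Gad2-high cells, a difference of 35.5 points, and within plates 4 and 5 in 34 of 36, a difference of 59.5. Wnt5a was over 10 in 44 of 60 and 38.9% of the others, and Sfrp2, a secreted frizzled-related protein, in 15 and 3.77%. The list held 25 genes, so 18 of them were too low to be compared. Of 10 general neuron genes and 7 heat shock genes, 0 were past 2-fold in either direction. Of 15 immediate early genes, which are switched on by activity and by dissociation, 0 were higher and 5 lower (5.43% of all genes lower), among them Egr4 (over 10 in 6 of 60 cells and 14.7% of the others) and Arc (20 and 41.1%). Against Nxph4-high cells alone 0 were higher and 5 lower (3.9 and 5.86% of all genes), with a median log2 ratio of -0.79. Against Slc6a3-high cells alone 1 was higher (Ier2) and 2 lower (11 and 4.73% of all genes), with a median of 0.03. The part of immediate early genes in the other differences was not tested.

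Set against each large group on its own, the markers kept their direction, although Ebf3, with a log2 ratio of 0.999 against the Slc6a3-high cells, fell short of 2-fold there. Against the Nxph4-high cells, 3.9% of genes were 2-fold higher and 5.86% lower, and against the 66 Slc6a3-high cells 11% were higher and 4.73% lower, with a median log2 ratio over all genes of 0.19. Crhbp was over 10 in 4.70% of Nxph4-high cells and 9 of 66 Slc6a3-high cells, Slc32a1 in 1.34% and 1, and Ebf3 in 20.8% and 19. Ddc had a log2 ratio of 1.12 against the Nxph4-high cells and of -1.90 against the Slc6a3-high cells, and Slc18a2 of 1.46 and -2.01. Both dopamine genes therefore lay between the large groups. Slc17a6 lay between them in the opposite order, with log2 ratios of -1.18 and 2.01.

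The 21 cells with both Gad2 and Nxph4 over 150 had fewer of the markers. Plates 1, 2, 4 and 5 held 6, 11, 2 and 2 of them. No difference within plates was calculated for these cells, so the part of plate, and of sex with it, was not tested. Gad2 in the 21 cells ran from 162.2 to 657.3 with a median of 265.1 RPKM. Crhbp was over 10 in 4 of 21 (difference from the Gad2-high cells -65.95 points, -79.3 to -42.2), Slc32a1 in 4, Gm14204 in 5 and Ebf3 in 11. Slc17a6 and Slc18a2 were over 10 in all 21 and Ddc and Th in 20, and Th was over 10 in more of them than of the 60 (difference 25.2 points, 4.68 to 38.3).

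Divided by Th, Th-low cells ran from 0 to 138.3 and Th-high cells from 261.98 to 3942 RPKM. Th was graded among the Th-low cells, with 18 at 10 or less and 12 over 10. Between the sides, 10.7% of the 10941 genes were at least 2-fold higher in Th-high cells and 6.22% lower, with a median log2 ratio of 0.06. Th chose the sides and its level is no finding. Th-high cells had a median of 2019635 reads and 9309 genes with a read, and Th-low cells 1588818 and 8452. With each cell thinned to 100000 reads, 11.1% of genes were higher and 6.91% lower, and the part of depth in single genes was not tested.

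Some dopamine neuron genes were over 10 in more of the Th-high cells. Slc6a3 was over 10 in 11 of 30 Th-high and 3 of 30 Th-low cells, Slc18a2 in 30 and 25 (log2 ratio 1.09), and Drd2 in 9 and 0. Kcnj6, the channel subunit GIRK2, was over 10 in 15 and 4, and Otx2, a transcription factor of ventral tegmental dopamine neurons, in 7 and 0. Aldh1a1, an aldehyde dehydrogenase of some dopamine neurons, led the ranking over plates, with 13 Th-high and 4 Th-low cells over 10 (difference 30 points, 7.2 to 49.2), and with 11.1 points within plates 1 and 2 (-26.1 to 40.7) and 43.8 within plates 4 and 5. Ddc did not follow Th, with all 30 over 10 on both sides and medians of 436 and 459 RPKM. Of 11 genes of dopamine synthesis and transport 3 were 2-fold higher, among them Th, which chose the sides, and 0 lower, and of 12 lineage factors 3 were higher (Otx2, Foxa1 and En1), beside 10.7% of all genes higher and 6.22% lower.

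Among the markers of the Gad2-high cells, Crhbp leaned to the Th-low side. Crhbp was over 10 in all 30 Th-low cells, from 160.04 to 4886 RPKM, and in 21 of 30 Th-high cells, whose median was 96.8 against 603 (difference -30 points, -47.9 to -12.5). Within plates 1 and 2 the difference was -40 points (-64.3 to -3.92) and within plates 4 and 5 it was -20 (-45.2 to 0.172, an interval that includes 0). Nxph4 was over 10 in 6 of the 9 Th-high cells with Crhbp of 10 or less, and in 1 of the 21 other Th-high cells. The part of such cells in the difference for Crhbp by Th was not tested. Slc32a1 was over 10 in 15 Th-high and 22 Th-low cells (difference -23.3 points, -44.3 to 1.2, an interval that includes 0). Ebf3 was over 10 in 20 and 26, with an interval of the difference (-39.6 to 1.6) that includes 0 as well. Gm14204 was over 10 in 24 and 26 cells. Slc17a6 was over 10 in 29 and 28 cells. Crhbp was the only 1 of Gad2, Crhbp, Slc32a1 and Ebf3 that was at least 2-fold lower in Th-high cells.

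**Figure D4:**
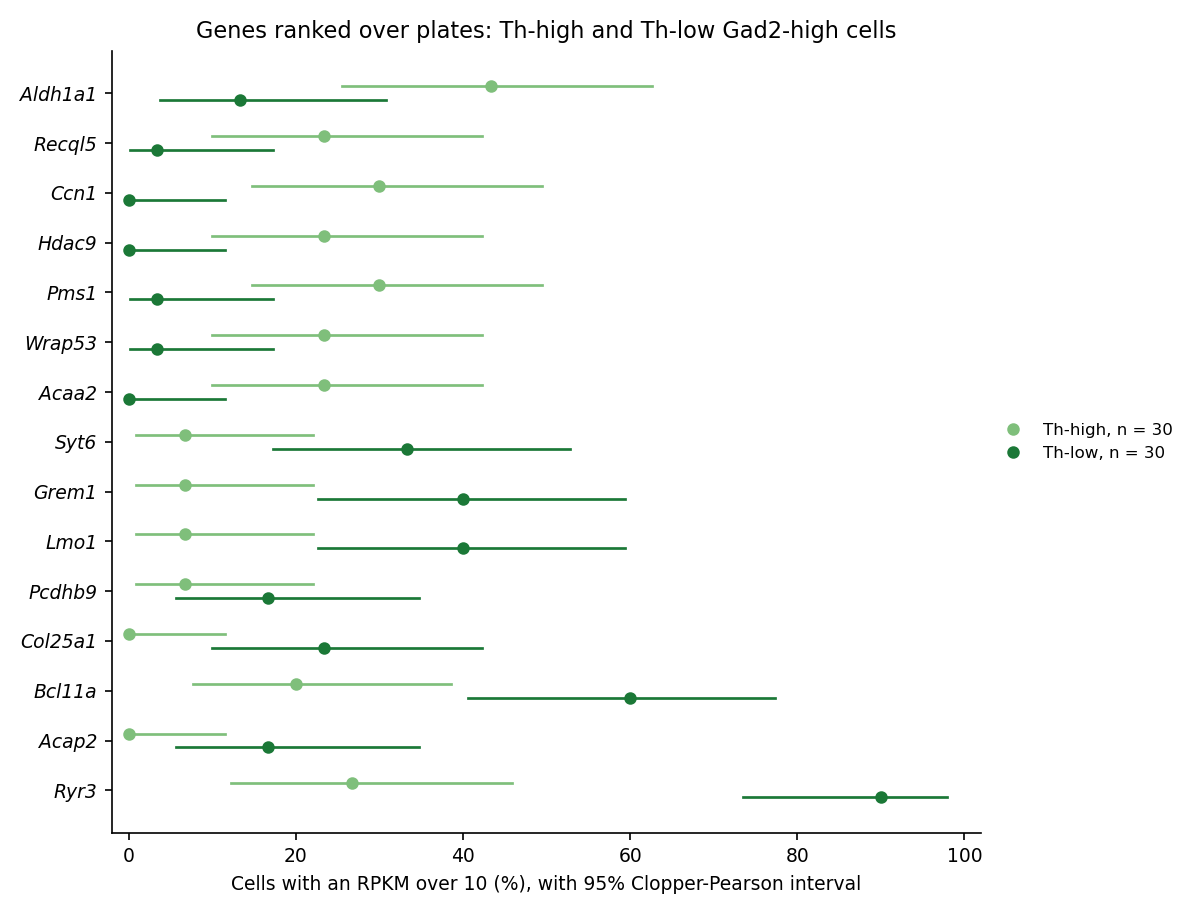
Share of Gad2-high cells with an RPKM over 10 for the genes ranked between 30 Th-high and 30 Th-low cells, with 95% Clopper-Pearson intervals. Ryr3 is over 10 in 8 Th-high and 27 Th-low cells, and Aldh1a1 in 13 and 4.

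Further genes high on the Th-low side were found by the ranking, among 9685 genes of which 1523 went the same way on all 4 plates. Some of these plate values rest on few cells, with 3 Th-low cells on plate 1 and 3 and 4 Th-high cells on plates 2 and 5. Syt6, a synaptotagmin, was over 10 in 2 Th-high and 10 Th-low cells, Lmo1, a LIM-only transcriptional partner, in 2 and 12, Grem1 in 2 and 12, Col25a1, a transmembrane collagen, in 0 and 7, and Bcl11a, a zinc finger factor, in 6 and 18. Ryr3 was over 10 in 8 and 27 cells, with medians of 1.65 and 77.1 RPKM, and the difference was -75.6 points within plates 1 and 2 and -50.5 within plates 4 and 5. Acap2 (0 and 5 cells) and Pcdhb9 (2 and 5 cells), the latter from a cluster of closely related protocadherins, rested on few cells. From the lists, Wnt7b was over 10 in 19 Th-high and 29 Th-low cells and Sfrp2 in 3 and 12, which left 3 of 7 Wnt genes 2-fold lower and 0 higher in Th-high cells (6.22 and 10.7% of all genes). Htr2c was over 10 in 20 and 29 cells and Grik1 in 11 and 22. Within plates 1 and 2 the difference was -48.9 points for Wnt7b (-71.03 to -8.43) and -46.7 for Htr2c (-69.9 to -9.62). Within plates 4 and 5 these were -13.3 (-37.9 to 4.87) and -15.2 (-40.7 to 6.86), and both intervals include 0. Over all plates Ptprq (10 and 23 cells) and Pld1 (4 and 16) were also over 10 in fewer Th-high cells, and Pdyn, the dynorphin precursor, in 0 and 6. Differences by Th within pairs of plates were not calculated for these genes.

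On the Th-high side the ranking gave Recql5, Ccn1, Hdac9, Pms1, Wrap53 and Acaa2 after Aldh1a1, each over 10 in 7 to 9 Th-high cells and 0 or 1 Th-low cells. Ccn1, a matricellular protein, was over 10 in 9 and 0, and Recql5, a DNA helicase, in 7 and 1. Recql5 is overlapped by genes of the other strand. Listed genes separated the sides more widely. C1ql3 was over 10 in 18 Th-high and 2 Th-low cells, Calca, the calcitonin gene-related peptide precursor, in 17 and 4, Adcyap1 in 14 and 1, and C1ql1 in 13 and 1. Ntsr1, a neurotensin receptor, was over 10 in 13 and 0 (difference 43.3 points, 23.8 to 60.8), and Chrna6, the alpha6 nicotinic subunit, in 28 and 18 (log2 ratio 2.31). Chrnb3, which forms receptors with it, was over 10 in 30 and 29. Nxph4, which the rule limits, was itself higher in Th-high than in Th-low members (log2 ratio 3.12). The part of cells near the Nxph4 line in the differences of single genes by Th was not tested.

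A second division was chosen after the values were seen. Crhbp was at 10 or less in 9 of the 60 cells, and all 9 were Th-high, with Th from 575.6 to 3350 RPKM. Nxph4 was over 50 in 6 of these 9 and in 1 of the 51 cells with Crhbp over 10, so those cells lie near the line that the rule draws. The 9 were set against the 21 other Th-high cells. Gad2, the other gene of the rule, ran from 159.5 to 604.4 with a median of 338.8 RPKM in the 9. In the 21 it ran from 307.8 to 1013 with a median of 602.9. Slc32a1 was over 10 in 1 of the 9 and in 14 of the 21, Wnt7b in 2 and 17, Pld1 in 0 and 4, and Aldh1a1 in 6 and 7. Ebf3 was over 10 in 7 of the 9 and 13 of the 21, with medians of 18.2 and 15.04 RPKM, and Htr2c in 6 and 14, so not every marker was low in the 9. Slc17a6, Ddc, Slc18a2, Nr4a2 and Chrnb3 were over 10 in all 9. With Nxph4 of 10 or less asked of the members, an alternative also chosen after the values were seen, 51 cells remained, and the difference in Crhbp was 86.2 points.

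Of 10 oligodendrocyte markers 3 were over 10 in any of the 60 cells. Mbp was over 10 in 11, with a highest value of 113.3 RPKM (26.8% of the others), and Mag in 5, and 17 of the 60 had at least 1 of the 10 over 10, 11 of them Th-high and 6 Th-low. Olig1, Olig2, Sox10 and Mobp had no read, and the summed RPKM of all 10 had a median of 2.59 (10.3 in the other cells). No Gad2-high cell had 3 or more of them over 10, against 5 of the others, and the part of these transcripts in the differences was not tested. Of 7 microglia markers 0 were over 10. The summed level of 8 astrocyte markers had a median of 10.1 (158.7 in the others), with Gfap, Aqp4 and Gja1 at 0, and nearly all of it was Aldoc, over 10 in 25 of 60 cells and 66.4% of the others, and in 8 Th-high and 17 Th-low cells.

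Earlier stages of Pitx3eGFP/wt mice were searched with the same rule, which uses the adult lines for younger cells. Before birth it took 12 cells of E13.5 (8.57% of that stage), 10 of E15.5 (7.09%) and 25 of E18.5 (13.3%). After birth it took 33 cells of P1 (10.3%) and 11 of P7 (5.85%). The study names a Neural Tissue Dissociation kit for E13.5 to E18.5, a Postnatal Neuron kit for P1 and P7 and a papain kit for P90. Stage cannot be told apart from the kit between these sets, or from plate within them. Values of different stages are therefore given side by side, each with the other cells of its own stage. At P7, 4 of the 11 cells had 3 or more oligodendrocyte markers over 10, as did 90 of the other P7 cells. At P1 this held for 1 of the 33 cells and 48 of the others, and at E18.5 for 1 of the 25 and 7 of the others. Such cells were kept, and their part in the values of these stages, also through the other cells, was not tested.

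Wnt7b marked cells chosen by Gad2 at each stage. It was over 10 in 11 of 12 Gad2-high cells at E13.5 (21.9% of the others), 7 of 10 at E15.5 (11.5%), 22 of 25 at E18.5 (13.5%), 26 of 33 at P1 (22.4%) and 7 of 11 at P7 (18.1%). The lower end of the interval of the difference lay over 0 at all 6 stages, with the lowest at P7 (16.6 points). Ebf3 was over 10 in 11, 8, 17, 19 and 6 cells from E13.5 to P7, and Slc32a1 in 4, 2, 4, 11 and 4, and for both genes the interval lay over 0 at all 6 stages. Gm14204 was over 10 in 11, 10, 20, 21 and 6. Crhbp was over 10 in 6, 4, 15, 18 and 2 cells, and at P7 its interval (-4.88 to 38.9 points) included 0.

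Htr2c passed 10 in 0 of 12 Gad2-high cells at E13.5 (0.781% of the others), 0 of 10 at E15.5 (0%), 2 of 25 at E18.5 (2.45%), 10 of 33 at P1 (5.24%), 6 of 11 at P7 (3.95%) and 49 of 60 at P90 (28.7%). Its difference from the other cells had an interval over 0 at P1, P7 and P90. Chrnb3 passed 10 in 1 of 12 at E13.5 (10.2% of the others), 1 of 10 at E15.5 (22.1%), 17 of 25 at E18.5 (60.1%), 25 of 33 at P1 (54.2%), 5 of 11 at P7 (22.03%) and 59 of 60 at P90 (35.8%). Slc17a6 was over 10 in 4 of 12 at E13.5 (53.1% of the others) and in 32 of 33 at P1 (52.8%), and Ddc in 12 of 12 (99.2%) and 25 of 33 (71.7%). Adam33 was over 10 in 0 Gad2-high cells before P90, and in at most 1 other cell of each of those stages. At E13.5 Gad1 was over 10 in 2 of the 12 cells, at P7 in 1 of the 11 and at the other stages in 0. Th was over 150 in 3, 4, 8, 15 and 4 Gad2-high cells from E13.5 to P7, so cells on both sides of the Th line were present at all stages.

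**Figure D5:**
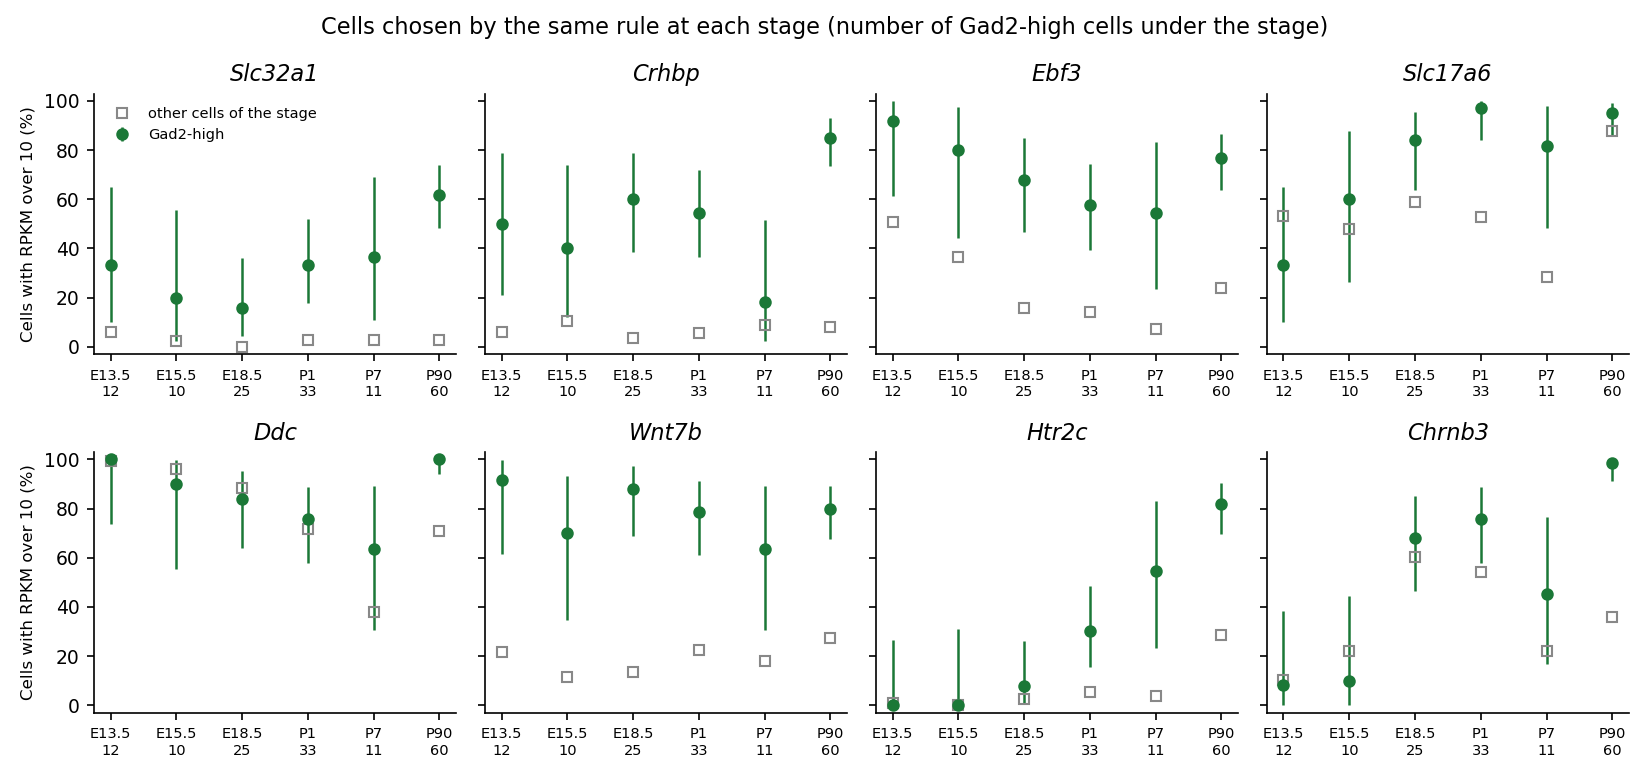
Share of cells with an RPKM over 10 at 6 stages for 8 genes, in Gad2-high cells (green, with 95% Clopper-Pearson intervals) and in the other cells of the stage (grey squares), with the number of Gad2-high cells under each stage. Wnt7b is over 10 in 11 of 12 Gad2-high cells at E13.5 and 48 of 60 at P90, and Htr2c in 0 of 12 at E13.5 and 49 of 60 at P90.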

How the data were processed

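Smart-seq2 libraries of single sorted cells were analysed from 2 deposited values per gene entry and cell. The authors aligned reads to mm10 (with eGFP and spike-in sequences) with STAR, kept unique reads, and deposited count values that are not normalized and RPKM values from rpkmforgenes, relative to gene length and the cell's reads. Versions are not given in the labels used here. Of 39468 entries, 38130 were matched to a symbol, and entries without one held 0.21% of reads. The 382 Pitx3eGFP/eGFP cells were not used.

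The members, lists and comparisons were chosen with earlier results of these data known, and some were taken from that earlier work. Groups were taken from the age and genotype labels, and plates from the sample titles. As no animal is named, no test or p-value is given. A gene counted as detected in a cell over an RPKM of 10, with Clopper-Pearson intervals for shares and Newcombe intervals for differences at 95%. Levels by group are summed counts scaled to 1000000 reads (CPM). Ratios were calculated for genes with a mean of at least 5 CPM over P90 cells, a 2-fold ratio was called, and a group at 0 was set to the floor of 3 reads. Ratios per plate used a pseudocount of 1. Genes were named as members of fixed lists (those with the largest ratios and the defining ones), by ranking on the smallest ratio over plates (10 in each direction, 8 by Th, with at least 10 CPM in either group and the same direction on every plate), and by likeness to Gad2. Some genes that these rules name are not reported here. Cells were also thinned to 100000 reads. The ratio step was tested on simulated counts. Positions are from GENCODE vM21 (GRCm38) and the promoter from RefSeq (GRCm38.p6). Reads do not mark strand. Python 3.11.15, NumPy 2.4.6, pandas 2.3.3, SciPy 1.17.1 and Matplotlib 3.10.9 were used.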

Additional observations from a re-analysis of the deposited data

How the results depend on the processing

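Without the condition on Nxph4 the rule gave 81 cells in place of 60, and a Th line at an RPKM of 10 put 70% of the 60 cells on the high side in place of 50%. Shares of genes moved with the low filter, which sets how many genes are compared. With no filter 10.3% of genes were at least 2-fold higher and 17.1% lower than in the other P90 cells (2.45 and 5.43% with a mean of at least 5 CPM), and 17.6% higher and 11.8% lower in Th-high than in Th-low cells (10.7 and 6.22%). With a mean of at least 20 CPM these were 1.05 and 2.71%, and 5.54 and 2.97%. Over all alternatives that left out 1 plate at a time, the shares ran from 2.69 to 3.35% higher and 5.92 to 6.44% lower, by Th from 11.99 to 14.1% higher and 7.44 to 9.32% lower, and the Th-high share of cells from 40 to 57.8%. The difference for Crhbp was 65 points at an RPKM over 1 and 86.2 with Nxph4 of 10 or less in the members. That for Slc32a1 was 86.2 points at an RPKM over 1 and 8.33 at over 50, and that for Ebf3 was 4.40 at over 50. Against the 95 cells with neither Gad2 nor Nxph4 over 150, 3 of 59 named genes changed direction, Slc18a2 (-3.07 points), Cck (-36.9) and Tac1 (0.789), and Col25a1 did so at an RPKM over 50 (-0.377), and the cause was not tested. Under those alternatives a further 21 and 23 of the 59 differences moved past their intervals, as did 10 at an RPKM over 1, 10 within plates 1 and 2 and 14 within plates 4 and 5, with 0 reversed in these 3. Thinning each cell to 100000 reads left all 59 differences within their intervals. Depth limits shares near an RPKM of 10, and with 10 to 12 cells at some stages the intervals there are wide. By replicate number no paired analysis was possible because those numbers only name the cells. All 4 plates held cells of both sides of each comparison, and values within plates are given in the text for many results but not all.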
